A study of Oryza sativa with 12 samples.

Results

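The transcripts described here are those of the rice superoxide dismutases (SODs) and catalases, 9 loci of the 42004 in the deposited table, chosen by locus identifier. They comprise 3 copper/zinc SODs, 1 manganese SOD, 2 iron SODs and 3 catalases. Gene expression was measured by sequencing of poly(A) RNA in 12 libraries of rice seedlings, 3 in each of 4 groups. WT_29C and WT_45C are the wild type ZH11, a japonica cultivar, without treatment at 29 °C and after heat at 45 °C, and dm_29C and dm_45C are the same for a line labelled as knocked out for GRP3 and GRP162, which encode glycine-rich RNA-binding proteins. Every group grew at 29 °C in nutrient solution, and heat was given to 8-day-old seedlings, for 18 h according to the sample characteristics and for 42 h according to the treatment protocol, a disagreement that the labels do not resolve. The labels do not say how the alleles were made or whether the line is 1 clone, and in the mutant line the number at the end of the genotype label differs from replicate to replicate. Nothing in the labels says that replicates were separate cultures, so p-values measure the spread between these libraries, which may be technical.

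SODs convert superoxide, a by-product of electron transport in plastids and mitochondria and a product of NADPH oxidases at the plasma membrane, into hydrogen peroxide and oxygen. Catalases, enzymes of the peroxisome, then break hydrogen peroxide down to water and oxygen without consuming a reductant. The metal in a plant SOD goes with its place in the cell: copper/zinc enzymes work in the cytosol and the plastid, manganese enzymes in mitochondria and iron enzymes in plastids. In green leaves much of the hydrogen peroxide met by catalase comes from glycolate oxidase in photorespiration.

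Levels are given in FPKM, which divides the fragments of a gene by its length and by the size of the library, so that levels of different genes can be set beside each other. The FPKM of a library summed to between 558435 and 599861, and its 10 most abundant loci held between 11.4% and 24.2% of that sum, with the highest shares in WT_45C replicate 3 (23.7%) and dm_45C replicate 1. The read depth behind each value is unknown. GRP162 was at 3288 in dm_29C replicate 1 and at 12466 in dm_45C replicate 1, above the highest wild type library of the same temperature (1121 and 3720), whereas the other libraries labelled double mutant lay between 218 and 746. GRP3 was at 4340 in dm_29C replicate 1 against 1086 and 1355 in the others, and at 10888 to 17604 in dm_45C against 14427 to 16321 in WT_45C. As the labels do not say how the alleles were made, RNA levels cannot show which of these libraries lack either protein. This holds for the replicate 1 libraries and for the others alike, so "libraries labelled double mutant" is written below. Both replicate 1 libraries stand apart by their GRP162 level. The members' heat changes in this line, and their genotype differences with an unadjusted p under 0.05, are therefore also given without them. The tissue is labelled whole plant, yet of 10 root markers 8 had a mean under 1 FPKM in WT_29C, WT_45C and dm_29C and 7 in dm_45C, with the nitrate transporters NRT2.1 and NRT2.2 and the root meristem factor QHB at 0 in every library. The root silicon transporter Lsi1 was the most abundant of these markers at 29 °C, at 30.6 ± 7.30 FPKM in WT_29C and 44.7 ± 8.15 in dm_29C, and it fell with heat to 1.78 ± 0.393 and 4.84 ± 2.36 (log2 fold changes -3.49 and -3.05, limma adjusted p = 1.51e-05 and 3.23e-05). The root markers summed to between 25.6 and 41.7 in WT_29C, 4.2 and 4.47 in WT_45C, 40.8 and 55.7 in dm_29C and 4.47 and 10.7 in dm_45C, so that control and heat libraries did not overlap. Lsi1 made up most of these sums at 29 °C. The root marker HMA3, at low level, went the other way with heat in both genotypes (log2 fold changes 0.63 and 0.77, limma adjusted p = 0.0857 and 0.0402). The remaining tested root marker, LOC_Os02g40730, was at 0.03 and -0.72 (limma adjusted p = 0.953 and 0.109). The sum over 5 leaf markers ran from 3680 to 9807 in WT_29C, 2458 to 4074 in WT_45C, 5868 to 7823 in dm_29C and 1870 to 4821 in dm_45C, with heat ranges that reach lower and overlap those of the controls in the wild type only. The part of the root and leaf markers' differences in the results was not tested, and in such bulk samples fewer cells of a type and less RNA per cell cannot be told apart.

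CATC, the main catalase of rice leaf blades, was the most abundant member at 29 °C, with a mean of 952 ± 166 FPKM (SD, n = 3) in WT_29C and 777 ± 100.9 in dm_29C. The cytosolic copper/zinc enzymes SODCC1 and SODCC2 followed in that order in both genotypes, and the mitochondrial Mn SOD and the plastid CuZn SOD came after them. The Fe SODs and CATB lay between 24.7 and 54.3 FPKM in the libraries at 29 °C, and CATA between 6.08 and 13.5. In WT_29C the libraries of neighbouring genes in this order did not overlap, apart from the Fe SOD LOC_Os06g02500 and CATB. In dm_29C the libraries of Mn SOD and the plastid CuZn SOD overlapped, although Mn SOD was the higher within each library.

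Heat changed that order. SODCC2 stood first at 45 °C, and among all loci it moved from rank 178 to rank 21 by mean FPKM in the wild type and from rank 154 to rank 21 in the libraries labelled double mutant. CATC was second in both genotypes. The plastid CuZn SOD overtook SODCC1 by mean FPKM in both, although their libraries overlapped in WT_45C and in dm_45C. In dm_45C the libraries of CATC and the plastid CuZn SOD, of the plastid CuZn SOD and Mn SOD, and of Mn SOD and SODCC1 also overlapped. These overlaps are between different libraries. Within each dm_45C library CATC exceeded the plastid CuZn SOD, which exceeded both Mn SOD and SODCC1. SODCC1 exceeded Mn SOD in dm_45C replicate 2 and the plastid CuZn SOD in WT_45C replicate 3.

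**Figure D1:**
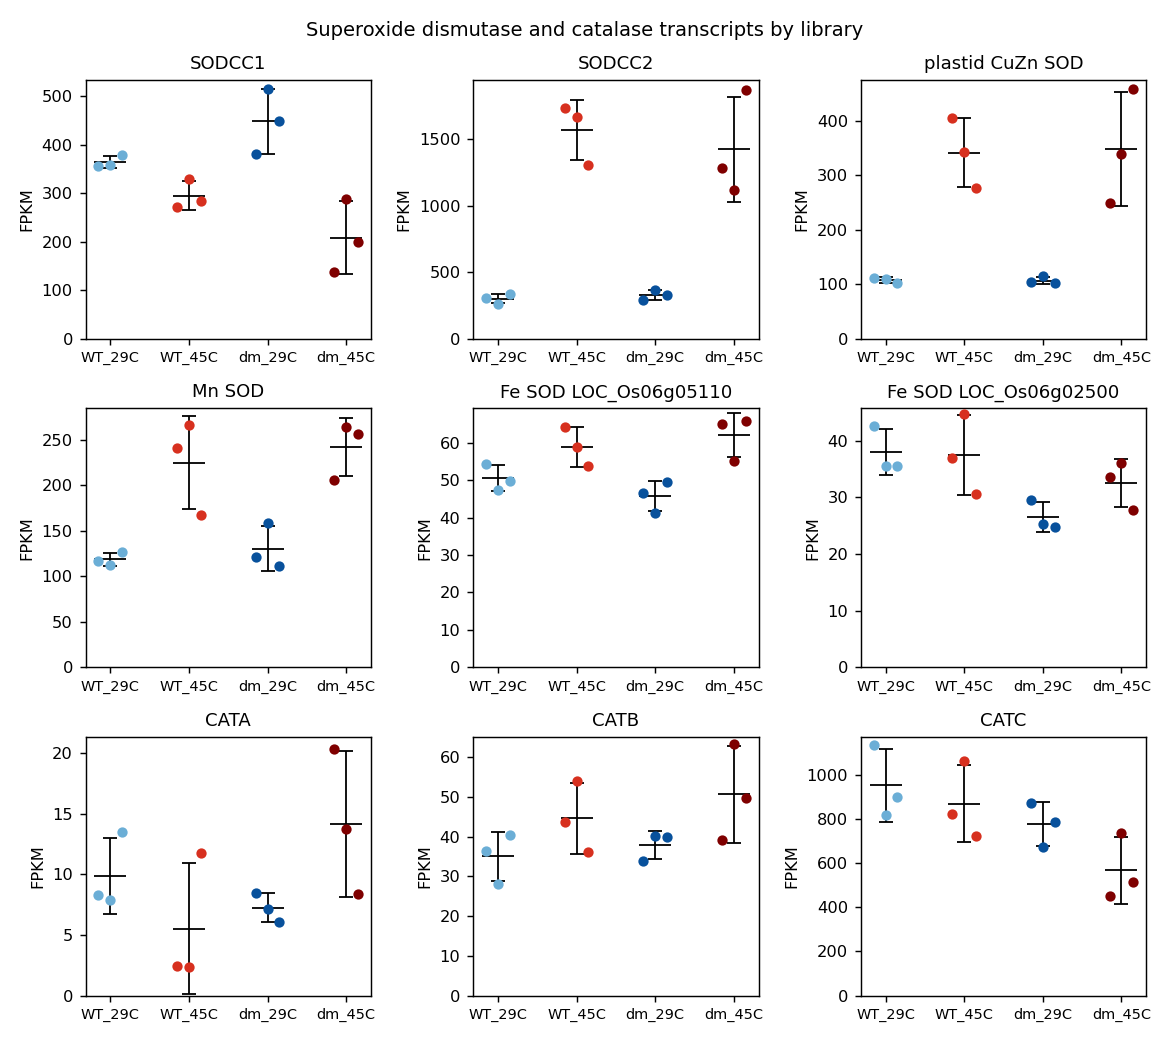
FPKM of each member (vertical axes, linear from 0) in the 12 libraries, by group (horizontal axes); points are libraries in replicate order, long bars the group mean and whiskers the SD (n = 3). SODCC2, the plastid CuZn SOD and Mn SOD lie higher in every library at 45 °C than in any at 29 °C, SODCC1 lies lower, and CATA spreads from 2.36 to 11.7 within WT_45C.

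Of the cytosolic copper/zinc SODs, SODCC2 rose with heat in both genotypes and SODCC1 rose in neither. SODCC2 (LOC_Os07g46990) stood at 308, 265 and 335 FPKM in WT_29C and at 1734, 1669 and 1309 in WT_45C. In the libraries labelled double mutant it stood at 293, 365 and 330.0 in dm_29C and at 1286, 1118 and 1868 in dm_45C. In both genotypes the lowest heat library exceeded the highest control. SODCC2 rose by a log2 fold change of 2.37 ± 0.24 (SE) in the wild type, a 5.17-fold change (limma adjusted p = 4.14e-05). It rose by 2.08 ± 0.24 in the libraries labelled double mutant (4.23-fold, limma adjusted p = 8.13e-05), and by 2.05 without both replicate 1 libraries (adjusted p = 0.00184).

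SODCC1 (LOC_Os03g22810), the other cytosolic enzyme, stood at 356, 359 and 379 FPKM in WT_29C and at 272, 329 and 283 in WT_45C. Each WT_45C library was below each WT_29C library, but the difference did not pass in limma (log2 fold change -0.31, interval -0.84 to 0.22, adjusted p = 0.37). In dm_29C it stood at 380.2, 514 and 449, and in dm_45C at 138, 288 and 199. There it fell by 1.15 ± 0.24 on the log2 scale (limma adjusted p = 0.00364), and by 1.002 without both replicate 1 libraries (adjusted p = 0.017). Replicate 1 was the lowest library of both groups. The fall in the libraries labelled double mutant and the smaller difference in the wild type were compared directly: the difference between the heat responses was -0.85 ± 0.35 (unadjusted p = 0.0299, limma adjusted p = 0.943) and did not pass. It was -0.69 without both replicate 1 libraries (adjusted p = 0.999).

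The ratio of SODCC2 to SODCC1 FPKM sets both genes side by side, as a description without a test. It was 0.864, 0.738 and 0.883 in WT_29C and 0.770, 0.710 and 0.735 in dm_29C. At 45 °C it was 6.37, 5.06 and 4.62 in the wild type and 9.34, 3.89 and 9.37 in the libraries labelled double mutant. SODCC1 was thus the more abundant of the pair in every library at 29 °C and SODCC2 in every library at 45 °C. The proteins are close relatives, and how reads common to their transcripts were divided is not stated in the sources, so the split between them is uncertain.

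The plastid CuZn SOD (LOC_Os08g44770), which removes superoxide formed at photosystem I, stood at 111, 110.1 and 102 FPKM in WT_29C and at 404, 343 and 277 in WT_45C. In dm_29C it stood at 103, 115 and 102 and in dm_45C at 249.8, 338 and 457. Control libraries of both genotypes lay within a narrow range, and no heat library reached down to it. It rose 3.12-fold in the wild type (log2 fold change 1.64 ± 0.22, limma adjusted p = 0.00023) and 3.16-fold in the libraries labelled double mutant (1.66 ± 0.22, limma adjusted p = 0.000197). Without both replicate 1 libraries the rise in the latter was 1.85 on the log2 scale (adjusted p = 0.000949).

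Mn SOD (LOC_Os05g25850), the mitochondrial enzyme, stood at 117, 112 and 127 FPKM in WT_29C and at 241, 266 and 167 in WT_45C. In dm_29C it stood at 121, 159 and 111 and in dm_45C at 206, 265 and 256. The groups did not overlap in either genotype, with WT_45C replicate 3 and dm_29C replicate 2 closest to the other temperature. Mn SOD rose 1.86-fold in both, by 0.89 ± 0.21 in the wild type (limma adjusted p = 0.00726) and by 0.90 ± 0.21 in the libraries labelled double mutant (limma adjusted p = 0.00652; 0.96 without both replicate 1 libraries, adjusted p = 0.0273).

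The Fe SODs lay between 24.7 and 65.7 FPKM over all libraries. LOC_Os06g05110 stood at 54.3, 47.4 and 49.9 FPKM in WT_29C, at 64.2, 58.9 and 53.7 in WT_45C, at 46.5, 41.4 and 49.4 in dm_29C and at 65.1, 55.2 and 65.7 in dm_45C. The groups overlapped in the wild type (log2 fold change 0.22, interval -0.10 to 0.54, limma adjusted p = 0.292) and not in the libraries labelled double mutant, where it rose 1.35-fold (0.43 ± 0.15, limma adjusted p = 0.0409). For Fe SOD LOC_Os06g05110 this call was lost without both replicate 1 libraries (adjusted p = 0.176), without dm_29C replicate 1 (0.0864), 2 (0.142) or 3 (0.057), without dm_45C replicate 1 (0.107) or 3 (0.128), without WT_45C replicate 1 (0.0526) or 2 (0.0572), in a fit restricted to both groups concerned (0.0684) and with the replicate block (0.0515). Its adjusted p ran from 0.0235 to 0.176 over 23 alternatives.

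The other Fe SOD, LOC_Os06g02500, stood at 42.6, 35.6 and 35.6 FPKM in WT_29C and at 37.0, 44.7 and 30.6 in WT_45C. Its values were 29.5, 25.4 and 24.7 in dm_29C and 33.6, 36.1 and 27.8 in dm_45C. Heat and control libraries overlapped in both genotypes, and neither log2 fold change passed in limma (-0.03, interval -0.41 to 0.35, adjusted p = 0.922 and 0.28, interval -0.10 to 0.66, adjusted p = 0.246). Without both replicate 1 libraries the latter was 0.33 (adjusted p = 0.346). The sign in the wild type, close to 0, turned without WT_29C replicate 1, without WT_45C replicate 3, with median-of-ratios scaling and with a scaling that leaves out the 10 most abundant loci.

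No catalase passed with heat in either genotype. CATC (LOC_Os03g03910) stood at 1137, 818 and 902 FPKM in WT_29C and at 822, 1065 and 723 in WT_45C, which overlap (log2 fold change -0.14, interval -0.70 to 0.43, limma adjusted p = 0.733). This sign turned with quantile scaling (0.37, adjusted p = 0.148). In dm_29C it stood at 872, 671 and 786 and in dm_45C at 451, 738 and 515, with 2 of the heat libraries below every control library (-0.47, interval -1.04 to 0.09, limma adjusted p = 0.183). Without both replicate 1 libraries, of which that of dm_45C was the lowest in CATC, the value was -0.24 (adjusted p = 0.644).

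CATB (LOC_Os06g51150) stood at 36.5, 28.2 and 40.4 FPKM in WT_29C and at 43.7, 54.0 and 36.2 in WT_45C, and at 33.8, 40.1 and 39.8 in dm_29C and 39.1, 63.4 and 49.7 in dm_45C. The libraries overlapped in both genotypes, with log2 fold changes of 0.34 (interval -0.12 to 0.80, limma adjusted p = 0.253) and 0.39 (interval -0.07 to 0.85, limma adjusted p = 0.183). The latter passed with scaling without the 10 most abundant loci (adjusted p = 0.0395, the lowest of 23 alternatives that reached up to 0.479), and without both replicate 1 libraries it was 0.48 (adjusted p = 0.2001).

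CATA (LOC_Os02g02400), the least abundant member, varied most between replicates. It stood at 8.26, 7.89 and 13.5 FPKM in WT_29C and at 2.45, 2.36 and 11.7 in WT_45C. WT_45C replicate 3 lay within the range of the controls, and the others below all of them. The log2 fold change was -1.01 ± 0.46 (limma adjusted p = 0.116). Without WT_45C replicate 3 it passed as a fall of 1.64 on the log2 scale (adjusted p = 0.00443, the lowest of 23 alternatives that reached up to 0.344). That library is singled out by its CATA value itself, so CATA p-values without it, here and below, are descriptive and no evidence of a difference.

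In the libraries labelled double mutant CATA stood at 8.5, 7.15 and 6.08 FPKM in dm_29C and at 20.3, 13.7 and 8.37 in dm_45C, on the other side of the controls but with 1 overlapping library (log2 fold change 0.81 ± 0.46, limma adjusted p = 0.197; 0.63 without both replicate 1 libraries, adjusted p = 0.464). The difference between the heat responses was 1.81 ± 0.64 (interval 0.42 to 3.21, unadjusted p = 0.0149, limma adjusted p = 0.917) and did not pass. Without WT_45C replicate 3 it was 2.45 (unadjusted p = 0.000141, adjusted p = 0.301), and without both replicate 1 libraries 1.63 (adjusted p = 0.999). The library with the highest CATA in each heat group, WT_45C replicate 3 and dm_45C replicate 1, was also that with the highest share of FPKM in the 10 most abundant loci (23.7% and 24.2%, against 13.2% to 15.7% in the other heat libraries). With scaling that leaves these loci out, the difference between heat responses was 1.81 (adjusted p = 0.778).

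**Figure D2:**
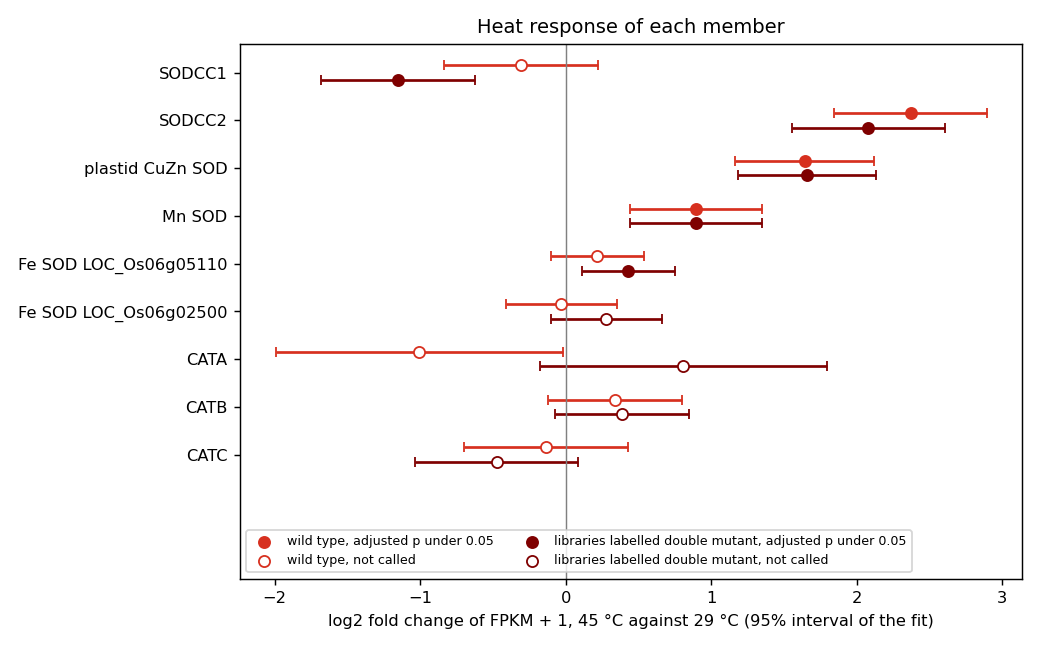
Log2 fold change of FPKM + 1 from 29 °C to 45 °C (horizontal axis) for each member, with the 95% interval of the limma fit, for the wild type and for the libraries labelled double mutant; filled points have an adjusted p under 0.05. SODCC2, the plastid CuZn SOD and Mn SOD are filled on the right in both genotypes, in the libraries labelled double mutant SODCC1 is also filled on the left and Fe SOD LOC_Os06g05110 on the right, and no catalase is filled.

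Counted together, 3 of the 9 members rose with heat in wild type libraries and 0 fell, where 13.3% of the 20305 tested loci rose, 15.8% fell and 29.1% were called in either direction. In the libraries labelled double mutant 4 rose and 1 fell, where 15.3% of tested loci rose, 16.4% fell and 31.7% were called. Groups did not overlap for 4 members in the wild type, against 42.6% of all tested loci, and for 5 in the libraries labelled double mutant, against 47.6%. No test was made of these counts, and nothing particular to the 9 members is read from them. The median log2 fold change of the members was 0.22 in the wild type and 0.43 in the libraries labelled double mutant, beside -0.04 and -0.01 over all tested loci. The rises called in both genotypes were those of SODCC2, the plastid CuZn SOD and Mn SOD, and the values of the catalases lay on both sides of 0. All 9 members passed the filter on low values.

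Between genotypes 0 of the 9 members were called by limma at an adjusted p under 0.05, at either temperature. Of all tested loci 0.241% were called at 29 °C (0.197% higher and 0.0443% lower in the libraries labelled double mutant) and 0.0197% at 45 °C (0.0148% higher and 0.00492% lower). At 29 °C 1985 of the 20305 tested loci had an unadjusted p under 0.05 by limma. Among members only the Fe SOD LOC_Os06g02500 did. Every dm_29C library lay below every WT_29C library, with a log2 difference of -0.50 ± 0.18 (unadjusted p = 0.014, limma adjusted p = 0.393) and -0.58 without both replicate 1 libraries (adjusted p = 0.413). SODCC1 did not overlap either, by a gap between 379 and 380.2 FPKM, with dm_29C above (0.29, interval -0.24 to 0.81, limma adjusted p = 0.769). Groups did not overlap for these 2 of 9 members, against 14.1% of all tested loci. The plastid CuZn SOD was nearest to equal, at 108 ± 5.11 FPKM in WT_29C and 107 ± 6.96 in dm_29C, with an interval of the log2 difference from -0.49 to 0.46.

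At 45 °C 3 of 9 members had an unadjusted p under 0.05 by limma, beside 1618 of the 20305 tested loci. Every member's libraries overlapped between genotypes, 0 of 9 being apart against 13.3% of all tested loci. CATA averaged 5.51 ± 5.38 FPKM in WT_45C and 14.1 ± 5.997 in dm_45C (log2 difference 1.44 ± 0.46, unadjusted p = 0.00777, limma adjusted p = 0.488). CATC averaged 870 ± 176 and 568 ± 151 (-0.63 ± 0.26, unadjusted p = 0.0315, limma adjusted p = 0.592), and SODCC1 295 ± 30.4 and 208 ± 75.3 (-0.56 ± 0.24, unadjusted p = 0.0399, limma adjusted p = 0.612). Without both replicate 1 libraries these differences were 1.15, -0.48 and -0.30 (adjusted p = 0.897, 0.919 and 0.941). Without WT_45C replicate 3, the highest CATA library of its group, the CATA difference was 2.07 (4.21-fold against 2.71-fold, unadjusted p = 4.53e-05, adjusted p = 0.115). As that library is singled out by its CATA value, these p-values are descriptive only. Deviations of same-numbered libraries at 45 °C correlated at 0.106 to 0.293, which does not show that the replicate numbers pair them. With the replicate block the limma adjusted p-values of CATA, CATC and SODCC1 were 0.47, 0.599 and 0.546, while the count over all loci went from 4 to 1. For SODCC2 and Mn SOD the intervals of the log2 difference at 45 °C ran from -0.69 to 0.36 and from -0.33 to 0.58.

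For the difference between the heat responses of the genotypes, 0 members were called by limma at an adjusted p under 0.05, where 0.0148% of all tested loci were called. At an unadjusted p under 0.05 there were 2 members, CATA and SODCC1, beside 1039 of the 20305 tested loci. The interval of that difference ran from -1.03 to 0.45 for SODCC2, from -0.66 to 0.69 for the plastid CuZn SOD and from -0.64 to 0.64 for Mn SOD. Differences of up to about those sizes cannot be told from none with 3 libraries a group.

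Over the 6 SOD members the sum of FPKM stood at 988, 928 and 1028 in WT_29C and at 2752, 2711 and 2121 in WT_45C. In dm_29C it stood at 974, 1219 and 1067 and in dm_45C at 1978, 2100.0 and 2875. LOC_Os03g11960, a further locus of the copper/zinc SOD family with means of 71.8 FPKM in WT_29C and 130.5 in WT_45C, is not in it. These sums and the shares that follow are descriptions without a test. The lowest sum at 45 °C exceeded the highest at 29 °C in each genotype. The share of SODCC2 went from 30.7% ± 2.06 to 62.1% ± 0.785 (SD, n = 3) in the wild type and from 30.3% ± 0.54 to 61.1% ± 6.79 in the libraries labelled double mutant. SODCC1 held 37.2% ± 1.33 and 11.8% ± 1.76 in the wild type and 41.1% ± 1.78 and 9.19% ± 3.90 in the libraries labelled double mutant. Both Fe SODs together with Mn SOD made up the smaller part in every group, and the share of Mn SOD went from 12.1% ± 0.268 to 8.82% ± 0.967 in the wild type although its FPKM rose.

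Catalase transcripts did not show such an increase. Their summed FPKM stood at 1182, 854 and 956 in WT_29C, at 868, 1121 and 771 in WT_45C, at 915, 719 and 832 in dm_29C and at 510.0, 816 and 573 in dm_45C. CATC held 95.5% ± 0.97 of the sum in WT_29C, 94.5% ± 0.625 in WT_45C, 94.4% ± 0.9752 in dm_29C and 89.6% ± 1.13 in dm_45C. The dm_45C libraries, at 88.3% to 90.5%, lay below all 9 others, the lowest of which was at 93.4%. CATB held between 7.66% and 8.67% in dm_45C and at most 5.58% in the other groups. CATA held between 1.46% and 3.99% in dm_45C and between 0.21% and 1.52% in the other groups.

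**Figure D3:**
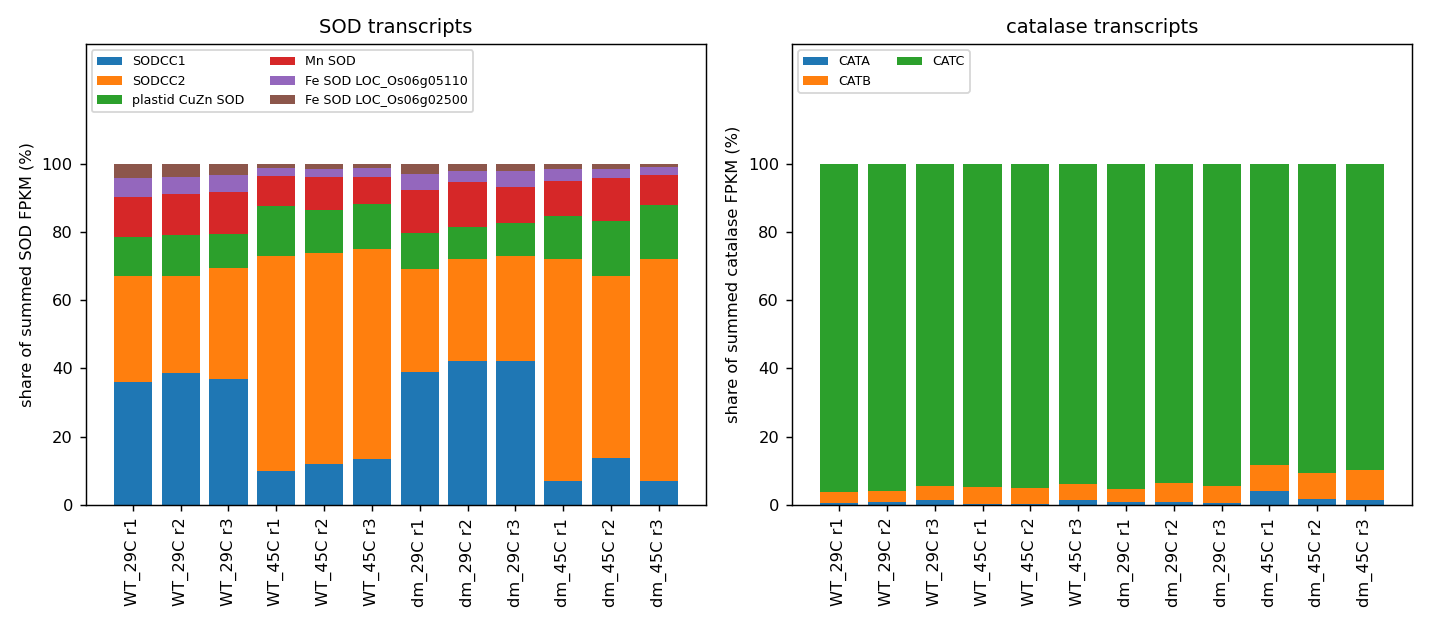
Share of each gene in the summed FPKM of the 6 SOD members (left) and the summed catalase FPKM (right) of each library, in percent (vertical axes, bars reach 100%). Replicates are r1 to r3. SODCC2 goes from a smaller share than SODCC1 in every library at 29 °C to the largest SOD share in every library at 45 °C, and CATC holds at least 88.3% of catalase FPKM in every library.

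Loci outside the members with the most similar profile were taken as those with the highest Pearson correlation of log2(FPKM + 1) over the 12 libraries, among all tested loci. For SODCC2 they were LOC_Os06g09679 (r = 0.994) and LOC_Os04g01740 (r = 0.992), the latter at 0.22 FPKM in WT_29C and 198 in WT_45C. For Mn SOD they were LOC_Os11g44800 (r = 0.987) and LOC_Os10g09240 (r = 0.983). The libraries form separate groups by temperature for these genes, so r mostly describes a shared difference between temperatures. For the Fe SOD LOC_Os06g05110 they were LOC_Os03g55380 (r = 0.981) and LOC_Os01g12710 (r = 0.959), and for CATC LOC_Os12g01449 (r = 0.960) and LOC_Os02g26860 (r = 0.959).

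Related enzymes were described through 6 lists with 45 loci, 41 of them tested. Upon heat 6 rose and 7 fell in the wild type, and 8 rose and 7 fell in the libraries labelled double mutant, beside 29.1% and 31.7% called over all loci. No test was made of these counts or of those of each list below. Beside them, 13.3% of all tested loci rose and 15.8% fell in the wild type, and 15.3% and 16.4% in the libraries labelled double mutant. Without both replicate 1 libraries 6 rose and 0 fell of 41 in the latter by limma. Every fall named below for this line, those of all 3 NADPH oxidases included, thus loses its call there (adjusted p from 0.0686 for GLO4 to 0.155 for RbohA). The log2 fold changes stayed negative, each with a larger SE. They were -1.34 for APX3 (-1.34 with all libraries), -1.16 for RbohE (-1.13) and -0.75 for GPX5 (-0.70). Nearer to 0 than before were RbohA at -0.74 (-0.90), RbohI at -0.78 (-1.08), GLO4 at -1.04 (-1.35) and LOC_Os02g47790 at -0.74 (-0.99). Between genotypes, and between their heat responses, 0 were called by limma at an adjusted p under 0.05. The median log2 fold change over all these loci was -0.08 in the wild type and -0.03 in the libraries labelled double mutant, beside -0.04 and -0.01 over all tested loci.

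The list of copper supply to SODs holds 3 loci. CCS, the chaperone that loads copper into copper/zinc SODs, went from 44 ± 5.37 to 89.3 ± 15.6 FPKM in the wild type (log2 fold change 0.997 ± 0.21, limma adjusted p = 0.00383) and from 41 ± 3.03 to 77.4 ± 20.1 in the libraries labelled double mutant (0.87 ± 0.21, limma adjusted p = 0.00758). Both calls held in all 23 alternatives. LOC_Os03g11960, a further locus of the copper/zinc SOD family, rose in the wild type from 71.8 ± 15.5 to 130.5 ± 52.9 (0.80 ± 0.25, limma adjusted p = 0.0306), a call lost in 4 of 23 alternatives (adjusted p up to 0.128). In the libraries labelled double mutant it did not pass. The remaining locus, SPL9, the rice relative of the copper response factor SPL7 of Arabidopsis, averaged 17.6 ± 2.21 and 19.4 ± 2.02 in WT_29C and WT_45C and did not pass in either genotype.

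Ascorbate peroxidases, which remove hydrogen peroxide with ascorbate, rose at 2 of 8 loci in the wild type and at 2 in the libraries labelled double mutant, where 1 fell. The cytosolic APX1 went from 293 ± 24.6 to 682 ± 98.7 FPKM in the wild type (1.21 ± 0.24, limma adjusted p = 0.00298) and from 402 ± 64.4 to 658 ± 187 in the libraries labelled double mutant (0.68 ± 0.24, limma adjusted p = 0.0485, lost in 13 of 23 alternatives). APX2, also cytosolic, rose by 1.03 in the wild type (limma adjusted p = 0.0365, lost in 7 of 23) and by 1.02 in the libraries labelled double mutant (0.0359, lost in 6 of 23). The locus that fell, APX3, was at 5.90 ± 1.27 in dm_29C and 1.97 ± 1.62 in dm_45C (limma adjusted p = 0.0171, lost in 4 of 23 alternatives).

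Of 9 tested loci that recycle ascorbate and glutathione, 1 rose in the wild type, while 3 rose and 1 fell in the libraries labelled double mutant. The latter, the monodehydroascorbate reductase locus LOC_Os02g47790, was at 1.36 ± 0.42 FPKM in dm_29C and 0.18 ± 0.156 in dm_45C and is named after its values were seen. DHAR1, a dehydroascorbate reductase, went from 256 ± 19.5 to 774 ± 35.6 FPKM in the wild type (1.59 ± 0.26, limma adjusted p = 0.000855) and from 351 ± 60.5 to 879.5 ± 308 in the libraries labelled double mutant (1.27 ± 0.26, limma adjusted p = 0.00297), with both calls held in all 23 alternatives. The glutathione reductase GR LOC_Os03g06740 and the monodehydroascorbate reductase MDHAR LOC_Os08g44340 rose in the libraries labelled double mutant by 0.47 and 0.68 (limma adjusted p = 0.043 and 0.0334), calls lost in 9 and 5 of 23 alternatives. Of 10 thiol peroxidases, glutathione peroxidase-like enzymes and peroxiredoxins, GPX5 fell in both genotypes, by 0.82 and 0.70 on the log2 scale (limma adjusted p = 0.02 and 0.0378, lost in 4 and 9 of 23). GPX2 rose in the libraries labelled double mutant from 48 ± 9.34 to 79.2 ± 6.59 (limma adjusted p = 0.0359, lost in 7 of 23).

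Sources of superoxide and hydrogen peroxide were also listed. Of 7 tested NADPH oxidases (Rboh), which make superoxide at the plasma membrane, 5 fell in the wild type and 3 in the libraries labelled double mutant, and 0 rose by limma at an adjusted p under 0.05. Of all tested loci 15.8% and 16.4% fell. The median log2 fold change of this list was -0.89 and -0.48. RbohI went from 34 ± 7.01 to 18.2 ± 5.59 FPKM in the wild type (limma adjusted p = 0.0154, lost in 3 of 23) and from 42.7 ± 7.3 to 19.9 ± 4.53 in the libraries labelled double mutant (limma adjusted p = 0.00508, lost in 1 of 23). RbohE fell by 1.77 in the wild type, held in all 23 alternatives, and by 1.13 in the libraries labelled double mutant (limma adjusted p = 0.00157 and 0.017, the second lost in 2 of 23). RbohB fell by 0.92 in the wild type (limma adjusted p = 0.0154, lost in 3 of 23), and RbohA fell by 0.903 in the libraries labelled double mutant (limma adjusted p = 0.0192, lost in 5 of 23). RbohA and RbohC, the others called in the wild type and named after their values were seen, had log2 fold changes of -1.11 and -0.63 there (limma adjusted p = 0.00707 and 0.0369).

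Glycolate oxidases, the photorespiratory source of hydrogen peroxide in peroxisomes, rose at 1 and fell at 1 of 4 loci in each genotype. GLO4 went from 1551 ± 476 to 562 ± 65.5 FPKM in the wild type (-1.42 ± 0.30, limma adjusted p = 0.0042, held in all 23 alternatives) and from 1048 ± 259 to 413.5 ± 131 in the libraries labelled double mutant (-1.35 ± 0.30, limma adjusted p = 0.00514, lost in 1 of 23). GLO3, at low level, went from 3.22 ± 1.42 to 13.5 ± 7.55 and from 3.51 ± 1.42 to 11.7 ± 6.71 (limma adjusted p = 0.0149 and 0.031, lost in 3 and 5 of 23 alternatives).

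**Figure D4:**
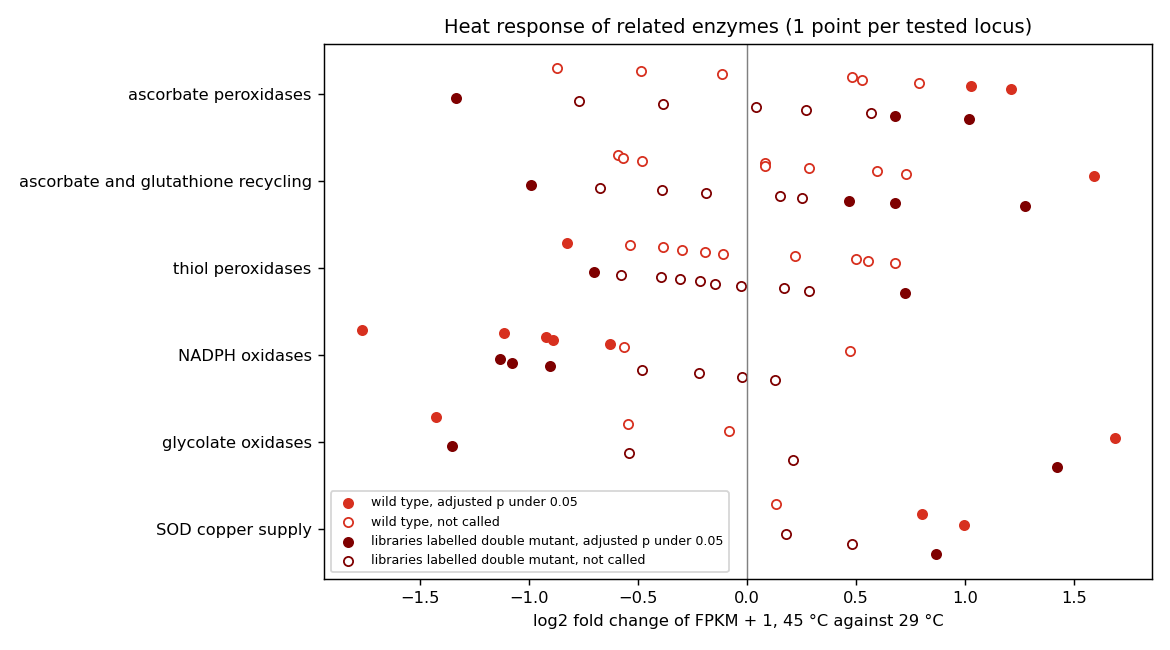
Log2 fold change of FPKM + 1 from 29 °C to 45 °C (horizontal axis) of the 41 tested loci in 6 lists of related enzymes (vertical axis), for the wild type and the libraries labelled double mutant; filled points have a limma adjusted p under 0.05. The filled points of NADPH oxidases lie to the left of 0 in both genotypes, whereas those of the copper supply list lie to the right.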

How the data were processed

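The authors deposited FPKM values per locus in 1 table, whose columns are the 12 libraries, per the file headers. Per the submitters' processing notes, the tools were HISAT2 2.0.4, StringTie 1.3.4d, cutadapt 1.9, UMI-tools, edgeR and DESeq2, with no role stated. Build and annotation are not named there; coordinates are therefore left out. Read counts and depth are unknown. Columns of the mutant line carry another code than its titles and were assigned as the columns not named wild type. A locus was tested where 3 or more libraries had an FPKM of at least 1 (20305 of 42004), as log2(FPKM + 1), so a fold change of a low gene is understated. A single limma fit (limma 3.58.1, R 4.3.3) with 4 group means and an intensity trend over all 12 libraries gave 5 comparisons: heat in each genotype, the genotypes at each temperature, and the difference between heat responses. Benjamini-Hochberg adjustment ran over all tested loci, with 0.05 as the threshold. No p was adjusted over the members alone. The fit was also run on simulated data with independent noise, for heat in the wild type only. That run does not test the genotype comparisons or the difference between heat responses. 

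The members and lists were chosen with earlier results of these data known. Named are all 9 members, up to 3 passing members per list and comparison with the highest mean FPKM, the 2 loci most like the most abundant member of each metal type and of the catalases, and the targeted genes. Of the 9 member names, 6 are a synonym in the RefSeq gene table, on the chromosome that the locus identifier gives; none of the identifiers themselves is in it. The replicate numbers were checked for pairing: deviations from the group means of same-numbered libraries correlated at 0.106 to 0.293 between WT_45C and dm_45C, above 0.1 in every pair, and below 0.1 in at least 1 pair for each other two groups. Alternatives were another pseudocount (0.1), no filter or FPKM 5, 4 other scalings, leaving out libraries, the replicate block, only the groups compared, and robust empirical Bayes. Scaling without the 10 most abundant loci was chosen after seeing the data. Values and plots were made in Python 3.11.15 (numpy 2.4.6, pandas 2.3.3, matplotlib 3.10.9).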

Additional observations from a re-analysis of the deposited data

How the results depend on the processing

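The number of members called ran from 3 to 4 with heat in the wild type and from 4 to 6 in the libraries labelled double mutant over 23 alternatives, and stayed at 0 between genotypes over 23 alternatives and for the difference between heat responses over 22. SODCC2, the plastid CuZn SOD and Mn SOD kept their calls with heat in both genotypes in all 23, as did SODCC1 in the libraries labelled double mutant. Counts over all loci moved more. For heat in the libraries labelled double mutant they went from 6430 to 3837 without both replicate 1 libraries, and ran from 4415 to 6611 when 1 library was left out. For the genotypes at 29 °C, 49 became 24 with pseudocount 0.1 and 13 with the filter at FPKM 5 (11 to 64 with 1 library left out). For the genotypes at 45 °C, 4 became 2 with the filter at FPKM 5, 10 without both replicate 1 libraries, 1 with the replicate block and 7 with only the groups compared (1 to 45 with 1 library left out). For the difference between heat responses, 3 became 0 with pseudocount 0.1, the filter at FPKM 5, TPM, or without both replicate 1 libraries, and 1 with the replicate block or with scaling without the 10 most abundant loci (0 to 4 with 1 library left out). The limma count at an unadjusted p under 0.05 was 1039 for this comparison. The cause was not tested. At the replicate block 1 member call was lost, that of the Fe SOD LOC_Os06g05110. Outside the comparison at 45 °C the correlations of same-numbered libraries were below 0.1 in at least 1 pair, which cannot show that pairing is absent. Values above 0.1 at 45 °C cannot show that it is present either. Between dm_29C and dm_45C the correlations were 0.14, 0.046 and 0.135 for replicates 1, 2 and 3.

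Signs turned for 10 of the 45 member differences, none of them called. For the Fe SOD LOC_Os06g02500 with heat in the wild type they were 0.0492 with median-of-ratios scaling and 0.028 with scaling without the 10 most abundant loci (-0.16 to 0.10 with 1 library left out), and for CATC 0.37 with quantile scaling. The plastid CuZn SOD between genotypes at 29 °C was at 0.0259 with quantile scaling, 0.00969 without both replicate 1 libraries and 0.00551 with scaling without the 10 most abundant loci (-0.0656 to 0.0175 with 1 library left out). At 45 °C it was at -0.0654 with median-of-ratios scaling (-0.21 to 0.22), and its difference between heat responses at -0.0299 (-0.20 to 0.23). With 1 library left out Mn SOD lay between -0.0255 and 0.23 at 29 °C, between -0.0732 and 0.26 at 45 °C, and its difference between heat responses was -0.0441 with median-of-ratios scaling (-0.20 to 0.15). CATB likewise lay between -0.0213 and 0.23 at 29 °C, and between -0.12 and 0.22 for the difference between heat responses. Depth is unknown, so counting error at low FPKM, as for CATA, could not be given.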
